A study of Mus musculus with 77 samples.

Results

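Metallothioneins and the carriers that move zinc and copper across membranes set how much of these metals a liver cell holds. The 8 genes described here are Mt1, Mt2, Mtf1, Slc30a1, Slc30a10, Slc39a8, Slc31a1 and Atp7b. They were chosen as a set of named genes, with no value in the rule but with earlier results of these data known, and all 8 were among the 25266 genes listed in the count files and among the 10696 genes that passed the filter on low counts. Livers came from adult male mice of 12 to 24 weeks on a C57BL/6J background. Mice of the Aco1 line lacked IRP1 in the whole body (allele Aco1 tm1.1Mwh, labelled IRP1_ko/ko, here Aco1-/-) or were its controls (IRP1_+/+, here Aco1+/+). Mice of the Ireb2 line lacked IRP2 in the whole body (allele Ireb2 tm1.2Mwh, IRP2_ko/ko, here Ireb2-/-) or were its controls (IRP2_+/+, here Ireb2+/+). Each of these 4 genotypes was sampled at ZT5, in the light phase, and at ZT12, at the onset of the dark phase (ZT is the time in hours since lights on). The 8 groups held 3 mice each, and each of the 24 livers gave one total RNA library and one library of ribosome-protected fragments (RPF, or footprints), the stretches of mRNA that ribosomes shield from RNase.

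Metallothioneins MT1 and MT2 are small cysteine-rich proteins that bind zinc and copper, and their genes are textbook targets of MTF1, a transcription factor that senses zinc and binds short metal response elements (MREs) in promoters. Slc30a1 encodes the zinc exporter ZnT1, another target of MTF1, and Slc30a10 encodes an exporter of the same family that carries manganese out of cells. Slc39a8 encodes ZIP8, which brings zinc, manganese and iron into cells. Slc31a1 encodes CTR1, the main copper importer, and Atp7b encodes the copper pump that loads ceruloplasmin and sends copper into bile. Metallothionein levels in liver are also known to respond to glucocorticoids, whose blood level in mice has a daily rhythm.

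Mt2 and Mt1 lie next to each other on chromosome 8 (GRCm38.p6, 94172618 to 94173567 and 94178883 to 94180327). Slc30a10 (185454848 to 185468762) and Slc30a1 (191906697 to 191913248) are on chromosome 1. Mtf1 (124802549 to 124849800) and Slc31a1 (62360583 to 62391769) are on chromosome 4, Slc39a8 (135816882 to 135888572) is on chromosome 3, and Atp7b (21992783 to 22060074) is on chromosome 8. RefSeq promoter windows of 300 bases (250 before and 50 after the start) matched all 8 genes, with 2 windows for Slc39a8. They were searched on both strands for the MRE core, TGCACNC or TGCGCNC. The core was found in 25.7% of all 32851 windows, and 3 or more matches in 1.97%. Mt2 had 4 matches, 3 of them upstream of the start, and Mt1 had 3, of which 1 was upstream and 2 lay in the 50 bases after it. Slc30a10 also had 3 matches, but 2 of them overlapped on opposite strands. Slc30a1 had 2 matches, Atp7b 1, and Slc39a8 1 in one of its windows. Mtf1 and Slc31a1 had 0. The E-box CACGTG, the core motif of the clock factors CLOCK and BMAL1, was found in 7.15% of all windows and, among these genes, in 1 window of Slc39a8. A match describes the letters of the window and was not tested as a binding site. On average over the genotypes, footprints of the metallothioneins were higher at ZT12 and those of Slc30a10 fell most among the members. The 250 upstream bases of these 3 genes are shown, with each MRE core in capitals. They are chr8:94178839-94179088 for Mt1, chr8:94172368-94172617 for Mt2 and chr1:185454598-185454847 for Slc30a10, all on the plus strand. The RefSeq start used for Mt1 lies inside the span given above for the gene, so this stretch reaches into that span.
Mt1: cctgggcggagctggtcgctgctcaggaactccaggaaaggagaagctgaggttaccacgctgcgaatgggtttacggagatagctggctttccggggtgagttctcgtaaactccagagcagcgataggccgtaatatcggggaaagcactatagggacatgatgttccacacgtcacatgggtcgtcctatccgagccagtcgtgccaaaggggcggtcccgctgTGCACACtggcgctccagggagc
Mt2: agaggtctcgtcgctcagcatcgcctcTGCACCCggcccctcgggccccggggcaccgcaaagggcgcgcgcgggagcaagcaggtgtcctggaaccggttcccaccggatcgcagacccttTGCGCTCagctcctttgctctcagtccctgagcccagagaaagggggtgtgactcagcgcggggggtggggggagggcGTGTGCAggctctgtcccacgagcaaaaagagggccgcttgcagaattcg
Slc30a10: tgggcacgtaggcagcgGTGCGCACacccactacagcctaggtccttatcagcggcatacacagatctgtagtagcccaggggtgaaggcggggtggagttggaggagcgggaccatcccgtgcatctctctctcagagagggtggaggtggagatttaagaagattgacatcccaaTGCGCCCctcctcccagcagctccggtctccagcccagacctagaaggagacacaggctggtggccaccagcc

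Counts are those of the coding sequence (CDS), which was inferred from the values to be the third column of the count files. An RNA library held 852293 to 3993492 such counts and an RPF library 2448915 to 13439600. Levels are given in CPM, the counts scaled to a common library size, after upper-quartile normalisation, and translation efficiency (TE) is the ratio of RPF to RNA CPM in one liver, given as log2. The knockouts were visible in the footprints of the targeted genes. Aco1 had a median of 499 RPF CPM over 6 Aco1+/+ livers and of 90.6 over 6 Aco1-/- livers, and Ireb2 had 62.3 to 81.4 in Ireb2+/+ livers and 32.5 to 41.2 in Ireb2-/- livers, so that the groups did not overlap in either line. The 5 hepatocyte markers examined were read in every library, and their summed RNA level was between 90100 and 148000 CPM. Each line had its own controls, and no difference in level between the lines was tested, so ranges over all 24 livers and over group means span both lines as a description.

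The genes were read at very different depths, and this sets the precision of what follows. Slc31a1 had between 240 and 1463 footprint counts per library and Atp7b a median of 287. Mt1 had 28 to 362 and Mt2 6 to 141. In the RNA libraries the metallothioneins were near the limit of detection, with 1 to 28 counts of Mt1 and 0 to 20 of Mt2, and Mt2 was at 0 in 2 libraries. Levels of different genes were not compared here, since no coding lengths were at hand. Mt1 and Mt2 are close paralogues, and how the counting treated reads that fit both is not given in the sources used here, so their separate values are uncertain.

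Among the 8 genes, the lowest adjusted p-values were those of Slc30a10 between the timepoints. Its RNA and its footprints were lower at ZT12 than at ZT5 on average in all 4 genotypes, and the change passed the test in the Aco1 line for both and in Ireb2+/+ livers for footprints. In Aco1+/+ livers its RNA was at 47, 41.1 and 32.3 CPM in the 3 mice at ZT5 and at 16.1, 13.2 and 21.1 at ZT12. In Aco1-/- livers the values were 37, 44.7 and 38.9 at ZT5 and 15.3, 19 and 17.7 at ZT12. The ZT12 livers of both genotypes lay below every ZT5 liver of their own genotype, a separation found for 26% of all genes in Aco1+/+ and 21.1% in Aco1-/- livers. RNA fell by 1.28 on the log2 scale in Aco1+/+ livers (SE 0.20, edgeR adjusted p = 4.66e-05) and by 1.18 in Aco1-/- livers (SE 0.20, edgeR adjusted p = 0.000202).

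In the Ireb2 line Slc30a10 RNA started from 22.4, 30.7 and 26.5 CPM in Ireb2+/+ livers at ZT5 and was at 12, 12.6 and 24.5 at ZT12, where 1 of the 3 livers lay within the ZT5 range. In Ireb2-/- livers it was at 34.6, 22.7 and 19.2 at ZT5 and at 14.5, 9.8 and 17.7 at ZT12, with no overlap, as for 21.9% of all genes. Neither RNA difference passed the test. The difference was −0.75 on the log2 scale in Ireb2+/+ livers (SE 0.28, edgeR adjusted p = 0.185) and −0.87 in Ireb2-/- livers (SE 0.28, edgeR adjusted p = 0.11). Without Ireb2+/+ replicate 3 at ZT12, the liver at 24.5 CPM, the RNA of Ireb2+/+ livers passed (log2 change −1.08, edgeR adjusted p = 0.0441).

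Footprints of Slc30a10 followed. They were at 38.4, 32.1 and 30 CPM in Aco1+/+ livers at ZT5 and at 16.9, 9.87 and 13.8 at ZT12. In Aco1-/- livers they were at 35.1, 28.3 and 28.4 and then at 13.8, 9.19 and 13.2. In Ireb2+/+ livers they were at 24, 24.5 and 28.4 and then at 11.8, 7.42 and 17.9. In Ireb2-/- livers they were at 32.9, 22.2 and 18.3 and then at 12, 8.66 and 13.8. No ZT12 liver reached the lowest ZT5 liver of its genotype. Within single genotypes this is common, at 27.1% of all genes in Aco1+/+, 27.2% in Aco1-/-, 27.1% in Ireb2+/+ and 23.7% in Ireb2-/- livers. Over the whole series the 12 livers of ZT12 (7.42 to 17.9 CPM) lay below the 12 of ZT5 (18.3 to 38.4), although the closest pair was nearly level. Such a separation of all 24 livers was found for 1.95% of the genes tested.

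**Figure D1:**
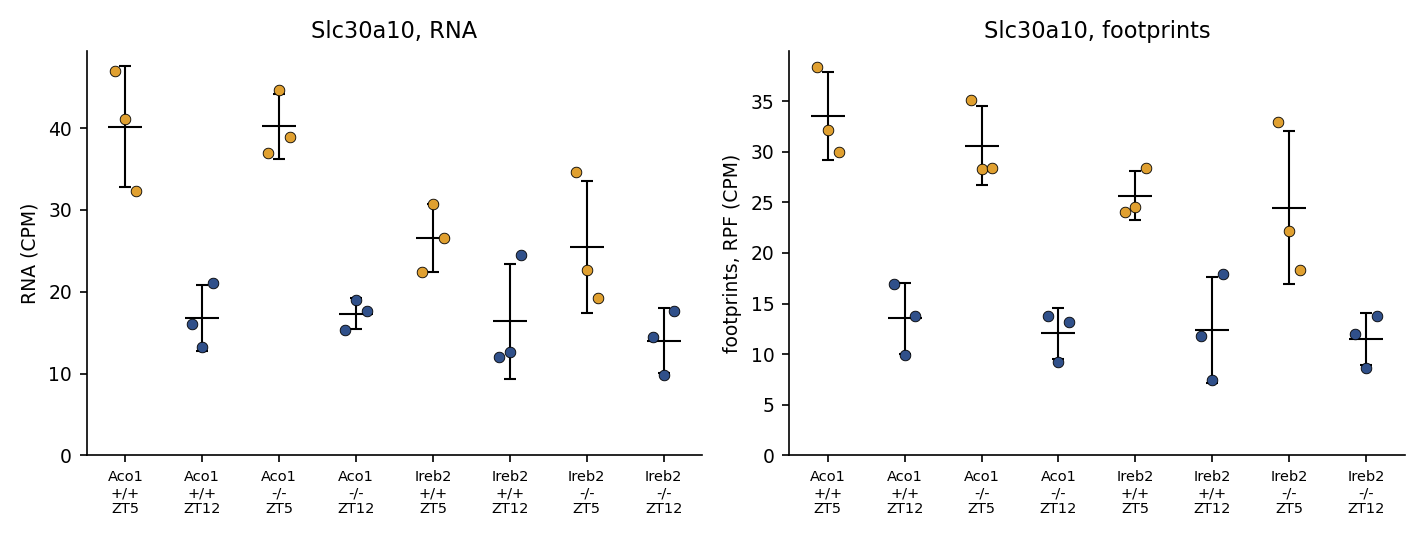
Slc30a10 RNA (left) and footprints (right) in CPM on linear axes, one point per mouse, with the group mean and SD (n = 3) as a black bar. In each genotype the ZT12 livers (blue) sit below the ZT5 livers (ochre) in footprints, between 7.42 and 17.9 CPM against 18.3 to 38.4.

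Footprints of Slc30a10 fell by 1.32 on the log2 scale in Aco1+/+ livers (SE 0.20, edgeR adjusted p = 0.000644), by 1.34 in Aco1-/- livers (SE 0.21, edgeR adjusted p = 0.000601) and by 0.98 in Ireb2+/+ livers (SE 0.27, edgeR adjusted p = 0.0431). The difference in Ireb2-/- livers, −1.05 (SE 0.29, edgeR adjusted p = 0.0564), lay just outside the threshold and passed it in 8 of 20 alternative settings. The call in Ireb2+/+ livers was lost in 9 of 20, 8 of which left out a single mouse of the line: any Ireb2+/+ mouse other than replicate 3 of ZT12, Ireb2-/- replicate 2 of ZT5, or Ireb2-/- replicates 1 or 3 of ZT12 (edgeR adjusted p = 0.0513 to 0.152). The calls in the Aco1 line held in all alternatives. The change with time did not differ detectably between knockout and control. The difference of the footprint changes was −0.03 in the Aco1 line (interval of ±2 SE −0.60 to 0.55) and −0.07 in the Ireb2 line (−0.87 to 0.73). The TE of Slc30a10 was at −0.28 on average over 24 livers, with changes from ZT5 to ZT12 between −0.40 and −0.06, none of which passed.

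The depth of the RPF libraries moved with time in opposite directions in the 2 lines. The median went from 5294272 to 8798532 CDS counts in the Aco1 line and from 8335721 to 4669502 in the Ireb2 line, and Slc30a10 was lower at ZT12 in both. In whole liver, fewer cells of a type and less RNA per cell cannot be told apart. Markers of bile duct cells also moved with time in footprints. Of 3 markers tested, Sox9 and Epcam had lower footprints at ZT12 averaged over the genotypes (log2 change −0.74, edgeR adjusted p = 0.000907, and −0.84, edgeR adjusted p = 0.0238), and none of the 3 passed in RNA. The summed level of the 4 markers listed, 1 of which was too low to test, was 13 to 21.7 RPF CPM at ZT5 (median 17.8) and 6.19 to 24.7 at ZT12 (median 10.8). Of 4 endothelial markers, Clec4g and Pecam1 had lower footprints at ZT12 (−0.35, edgeR adjusted p = 0.000201, and −0.25, edgeR adjusted p = 0.0443), with a sum of 367 to 493 CPM at ZT5 and 351 to 437 at ZT12, and Clec4g was also lower in RNA (−0.26, edgeR adjusted p = 0.00898). The part of depth and of these cells in the change of Slc30a10 was not tested. None of the 4 Kupffer cell and 4 stellate cell markers passed in RNA or footprints. Summed Kupffer cell markers were at 348 to 497 RPF CPM at ZT5 and 273 to 581 at ZT12, and summed stellate cell markers at 419 to 676 and 507 to 655. The 4 erythroid markers (summed 7.3 to 72 RNA CPM at ZT5 and 1.91 to 103 at ZT12) and the 1 lymphoid marker tested (median sums of 161 and 127 RPF CPM at ZT5 and ZT12 for the lymphoid list) did not pass either, and Ptprc was at 0 in all libraries. Of the 5 hepatocyte markers, Tat passed as higher at ZT12 in RNA and footprints (0.64 and 0.79) and Alb in footprints (0.20).

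The metallothioneins went the other way, though not in every liver. At ZT5 Mt1 footprints ran from 7.79 to 18.6 CPM over 12 livers, with a median of 9.77. At ZT12 they ran from 8.15 to 62.8 with a median of 16.2. In Aco1-/- livers at ZT12 Mt1 was at 8.62, 62.8 and 33.8 CPM, against 10.1, 10.6 and 7.79 at ZT5. In Ireb2-/- livers it was at 17.9, 43.3 and 11 against 8.23, 8.25 and 9.77, and in Ireb2+/+ livers at 32.7, 13.3 and 15.4 against 9.77, 8.85 and 9.37. In both genotypes of the Ireb2 line, all ZT12 livers were above all ZT5 livers, in comparisons in which 27.1% (Ireb2+/+) and 23.7% (Ireb2-/-) of all genes were separated. In Aco1+/+ livers Mt1 was at 8.15, 17 and 8.88 at ZT12 and at 9.84, 10.4 and 18.6 at ZT5, with the ranges overlapping.

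Mt2 was high in largely the same mice. In Aco1-/- livers at ZT12 it was at 1.18, 24.4 and 13.7 RPF CPM, against 4.28, 4.72 and 1.67 at ZT5. In Ireb2+/+ livers it was at 11.8, 6.91 and 12.4 against 3.63, 3.8 and 2.21, and in Ireb2-/- livers at 7.91, 13.9 and 3.51 against 1.65, 1.24 and 1.83. The groups of the Ireb2 line did not overlap, with the same 27.1 and 23.7% of all genes separated. In Aco1+/+ livers the values were 1.68, 5.27 and 5.4 at ZT12 and 4.3, 2.6 and 10.5 at ZT5. Erythroid markers varied in the Aco1 line too, although none passed. Their median log2 change from ZT5 to ZT12 was 2.13 in RNA and 2.30 in footprints in Aco1-/- livers and −0.41 and −1.19 in Aco1+/+ livers, and that of knockout over control was 0.71 and 1.51 at ZT12 and −1.84 and −1.75 at ZT5. In single Aco1-/- livers at ZT12 their summed RNA was at 83.4, 103 and 1.91 CPM in replicates 1, 2 and 3. The Mt2 footprints of these mice, at 1.18, 24.4 and 13.7 CPM, ranked differently, with replicate 1 lowest. The part of the erythroid markers in the metallothionein values was not tested. As deviations from the group means over 24 livers, the log2 footprint levels of Mt1 and Mt2 had a Spearman correlation of 0.79, and their RNA levels one of 0.64. This is a description of pairs of values that share a library, a depth and possibly reads.

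**Figure D2:**
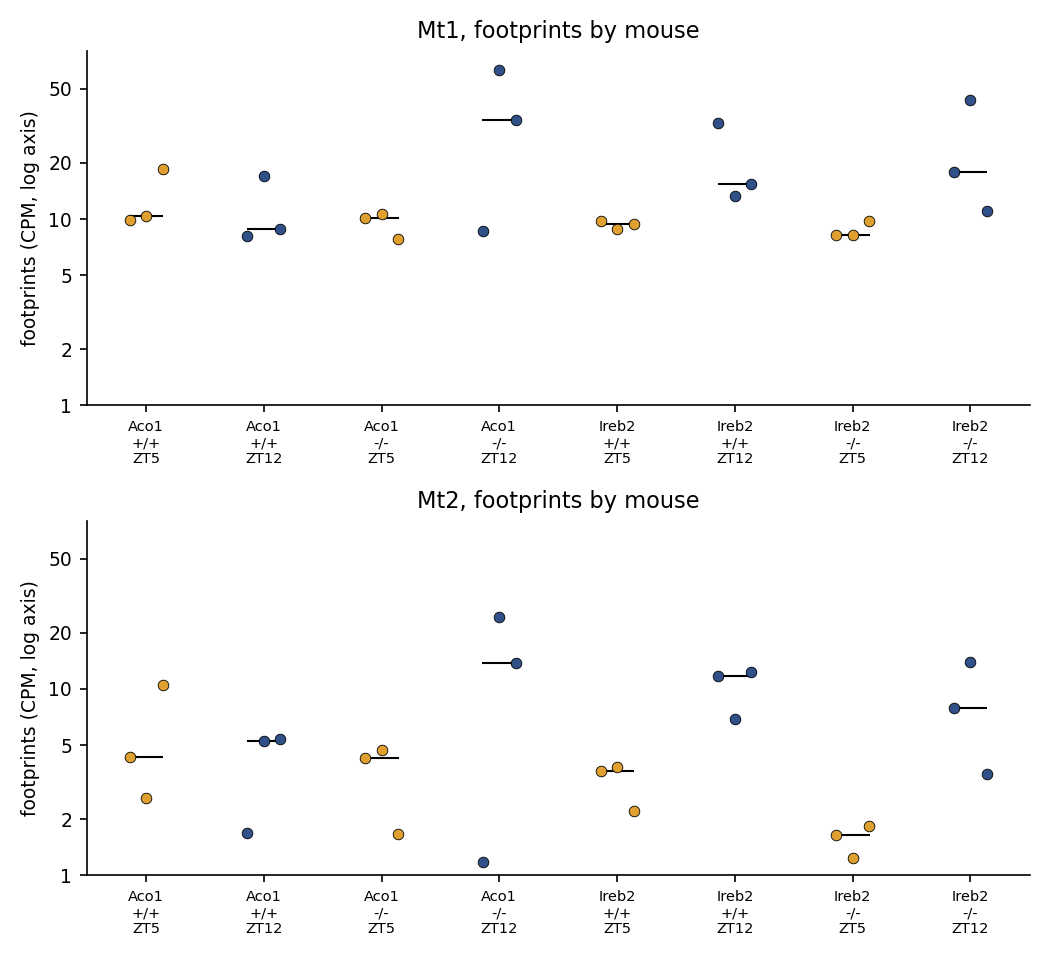
Footprints of Mt1 (top) and Mt2 (bottom) in CPM on log axes, one point per mouse and a bar at each group's median (n = 3). For Mt1 the ZT5 livers (ochre) lie between 7.79 and 18.6 CPM and the ZT12 livers (blue) between 8.15 and 62.8.

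Mt2 footprints rose from ZT5 to ZT12 by 2.41 on the log2 scale in Ireb2-/- livers (SE 0.49, edgeR adjusted p = 0.00953) and by 1.70 in Ireb2+/+ livers (SE 0.36, edgeR adjusted p = 0.01). The first call was lost without Ireb2-/- replicate 2 of ZT5 (edgeR adjusted p = 0.0838) and the second without Ireb2+/+ replicate 3 of ZT12 (edgeR adjusted p = 0.0627). Mt1 footprints, with differences of 1.43 (SE 0.53, edgeR adjusted p = 0.176) and 1.11 (SE 0.49, edgeR adjusted p = 0.233) in these groups, did not pass, although both passed with DESeq2 (DESeq2 adjusted p = 0.00558 and 0.0416), and the second also passed without Ireb2-/- replicate 2 of ZT12 (edgeR adjusted p = 0.0374). Without that mouse the first difference was 0.71. In Aco1-/- livers, where the footprints of neither gene passed, both passed without replicate 1 of ZT12, the mouse with the low values (log2 change 2.34 for Mt1, edgeR adjusted p = 0.00172, and 2.38 for Mt2, edgeR adjusted p = 0.0184), and Mt1 also passed with DESeq2 (DESeq2 adjusted p = 0.0279). In the RNA libraries Mt1 rose in Aco1-/- livers by 1.71 (SE 0.47, edgeR adjusted p = 0.0233), from 2.1, 1.46 and 1.98 CPM to 2.03, 8.08 and 5.72. This call rests on 2 mice with high values, on 2 to 28 counts per library, and was lost without Aco1-/- replicates 2 or 3 of ZT12 or replicate 2 of ZT5 (edgeR adjusted p = 0.0645 to 0.152) and with the first sequencing run alone (edgeR adjusted p = 0.292). With all count columns summed it was larger (log2 change 2.36, edgeR adjusted p = 0.00294). Mt1 RNA of Ireb2-/- livers was at 1.34, 0.42 and 1.92 CPM at ZT5 and at 4.57, 7.08 and 1.97 at ZT12 (log2 difference 1.78, SE 0.68, edgeR adjusted p = 0.2), and passed with all count columns (1.90, edgeR adjusted p = 0.0321). In Ireb2+/+ livers it was at 1.38, 1.23 and 8.08 CPM at ZT5 and at 4.52, 1.83 and 3.22 at ZT12, with overlap (log2 difference −0.12, SE 0.65, edgeR adjusted p = 0.959), and in Aco1+/+ livers the difference was 0.39 (SE 0.64, edgeR adjusted p = 0.798). The TE of Mt2 in Ireb2-/- livers was at −0.03, 1.35 and 1.05 at ZT5 and at 2.56, 1.48 and 1.35 at ZT12 (log2 difference 1.10, SE 0.80, edgeR adjusted p = 1). The closest livers were level to the digits given, on 1 and 2 RNA counts, and 11.6% of all genes were separated there.

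Of the other members, Atp7b footprints fell in Ireb2+/+ livers by 0.52 on the log2 scale (SE 0.13, edgeR adjusted p = 0.0141), from 62.7 ± 4.08 to 43.5 ± 6.04 CPM (SD, n = 3). The call was lost without replicate 1 of either timepoint (edgeR adjusted p = 0.0797 and 0.0939). In Ireb2-/- livers the level was 56.3 ± 5.74 and 53.6 ± 4.64 (SD, n = 3), and the 2 changes differed by 0.44 (SE 0.18, edgeR adjusted p = 1), which did not pass. In the Aco1 line Atp7b footprints were at 47.3 ± 6.68 and 52.9 ± 7.58 in Aco1+/+ livers and at 50.3 ± 18.8 and 59.2 ± 7.45 in Aco1-/- livers at ZT5 and ZT12 (SD, n = 3), and without Aco1-/- replicate 3 of ZT5 the latter passed as an increase (log2 change 0.59, edgeR adjusted p = 0.0323). Slc39a8 footprints in Ireb2-/- livers were at 21.7, 18.8 and 15.3 CPM at ZT5 and at 11.1, 14.5 and 12.3 at ZT12, with no overlap, as for 23.7% of all genes (log2 difference −0.55, SE 0.20, edgeR adjusted p = 0.118). In Ireb2+/+ livers they passed without replicate 3 of ZT5 (log2 change −0.62, edgeR adjusted p = 0.0397). Its RNA passed in none of the genotypes, but with all count columns summed it passed in Aco1+/+ (−0.56, edgeR adjusted p = 0.00957), Aco1-/- (−0.67, edgeR adjusted p = 0.00294) and Ireb2-/- livers (−0.67, edgeR adjusted p = 0.00655).

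Slc30a1, Slc31a1 and Mtf1 did not pass between the timepoints in any genotype, except Slc30a1 RNA in Ireb2+/+ livers with all count columns (log2 change 0.47, edgeR adjusted p = 0.0414). Slc30a1 footprints had group means between 41.2 ± 4.91 CPM in Ireb2+/+ livers at ZT5 and 52.5 ± 2.55 in Ireb2+/+ livers at ZT12 (SD, n = 3). Slc31a1 footprints had means between 114 ± 3.98 in Aco1+/+ livers at ZT5 and 150 ± 9.21 in Ireb2-/- livers at ZT5 (SD, n = 3). Its RNA was between 46.8 ± 2.80 and 63.2 ± 7.87, in Aco1+/+ livers at ZT5 and ZT12 (SD, n = 3). Mtf1 had footprint means between 5.44 ± 1.56 and 8.15 ± 0.188 CPM (SD, n = 3), 8 to 81 counts per library and, over single livers, a range of 3.33 to 10.5 CPM.

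These counts can be read beside the shares of all genes. In RNA, 1 of the 8 members passed between the timepoints in Aco1+/+ livers, where 7.05% of all genes tested did, 2 in Aco1-/- livers (5.15%), and 0 in Ireb2+/+ (2.29%) and Ireb2-/- livers (2.77%). In footprints, 1 passed in Aco1+/+ livers (6.64%), 1 in Aco1-/- (12.1%), 3 in Ireb2+/+ (7.53%) and 1 in Ireb2-/- livers (5.73%). In TE, 0 of 8 passed in each genotype by edgeR and by DESeq2, and 2 of the 32 tests had an unadjusted p under 0.05. The backgrounds there were 0.0187% in Aco1+/+, 0.15% in Aco1-/-, 0.533% in Ireb2+/+ and 0.00935% in Ireb2-/- livers.

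**Figure D3:**
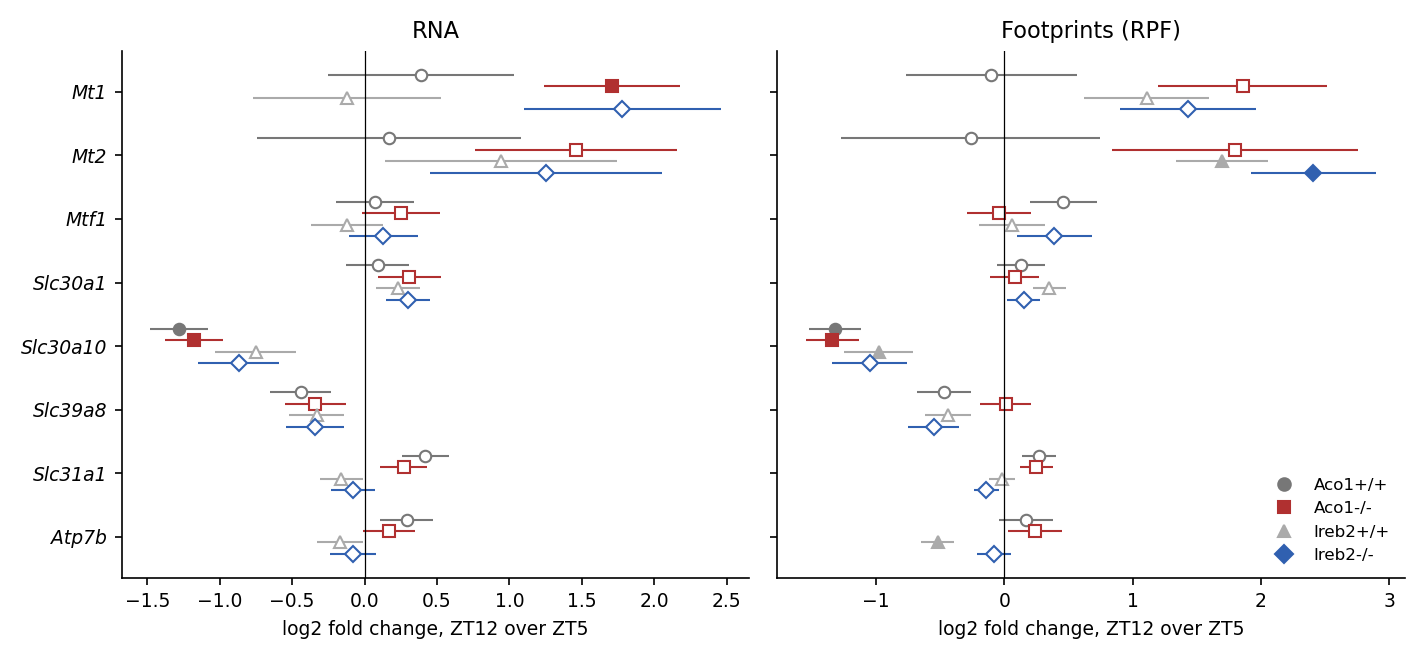
Log2 fold changes from ZT5 to ZT12 with their standard errors, for RNA (left) and footprints (right), one marker per genotype, filled where the edgeR adjusted p was under 0.05. Slc30a10 lies left of 0 in every genotype, while Mt1 and Mt2 lie right of 0 in most and near 0 in Aco1+/+ livers and, for Mt1 RNA, in Ireb2+/+ livers.

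To use all 24 livers at once, the change from ZT5 to ZT12 was averaged over the 4 genotypes in a single fit. This fit was chosen after the data had been seen and rests on the same livers as the values above. Slc30a10 fell by 1.02 on the log2 scale in RNA (SE 0.12, edgeR adjusted p = 2.76e-08) and by 1.18 in footprints (SE 0.13, edgeR adjusted p = 9.64e-08), that is to 0.493 and 0.442 of its ZT5 level. Mt1 rose by 0.94 in RNA (SE 0.31, edgeR adjusted p = 0.0228) and by 1.08 in footprints (SE 0.31, edgeR adjusted p = 0.0127), and Mt2 by 1.41 in footprints (SE 0.41, edgeR adjusted p = 0.0146). In Aco1+/+ livers alone the footprint differences were −0.10 for Mt1 (SE 0.67, edgeR adjusted p = 0.956) and −0.26 for Mt2 (SE 1.01, edgeR adjusted p = 0.921). The RNA call of Mt1 was lost without Ireb2+/+ replicate 1 of ZT5, Ireb2+/+ replicate 1 of ZT12 or Ireb2-/- replicate 2 of ZT12 (edgeR adjusted p = 0.0545 to 0.0551). Slc39a8 fell by 0.36 in RNA (SE 0.10, edgeR adjusted p = 0.00653) and by 0.36 in footprints (SE 0.10, edgeR adjusted p = 0.00738), although the footprint difference in Aco1-/- livers alone was 0.01 (SE 0.20, edgeR adjusted p = 0.973). Its RNA was at a median of 23.4 CPM over 12 livers at ZT5 (19.3 to 29.3) and 17.4 at ZT12 (15.7 to 23.1), so the ranges overlapped.

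In this fit 3 of 8 members passed in RNA, where 22.3% of all genes did, 4 of 8 in footprints, where 31.8% did, and 0 of 8 in TE, where 0.486% did. The zinc sensor Mtf1 did not pass (log2 change 0.08 in RNA and 0.22 in footprints), nor did Slc31a1 (0.11 and 0.09), whose RNA passed with all count columns (0.24, edgeR adjusted p = 0.00287), or Atp7b (0.05 and −0.05). Slc30a1 gave 0.24 in RNA (edgeR adjusted p = 0.0789) and 0.17 in footprints (edgeR adjusted p = 0.111). It passed in RNA with all count columns (0.35, edgeR adjusted p = 0.00867), with TMM normalisation (0.27, edgeR adjusted p = 0.0473), without Aco1+/+ replicate 3 of ZT5 (0.28, edgeR adjusted p = 0.0306) or without Aco1-/- replicate 3 of ZT5 (0.30, edgeR adjusted p = 0.015), and in footprints without Aco1+/+ replicate 3 of ZT5 (0.23, edgeR adjusted p = 0.017) or Aco1-/- replicate 2 of ZT12 (0.22, edgeR adjusted p = 0.0409). Mt2 RNA, which did not pass in the fit of all livers, passed without Aco1+/+ replicate 3 of ZT5 (1.37, edgeR adjusted p = 0.0274) and with all count columns (1.33, edgeR adjusted p = 0.017).

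Other genes of zinc transport were followed with the same averaged fit. Of 21 listed transporters 15 could be tested, and 4 rose and 0 fell in RNA, 5 rose and 2 fell in footprints. Their median log2 change was 0.08 in RNA and 0.04 in footprints, against −0.04 over all genes in both, and the counts of calls stand against 22.3 and 31.8% of all genes. Slc39a14, which encodes ZIP14, an importer of zinc, iron and manganese, rose by 0.62 in RNA (SE 0.11, edgeR adjusted p = 6.09e-05) and by 0.67 in footprints (SE 0.08, edgeR adjusted p = 3.33e-07). Its footprints had a median of 194 CPM over the 12 livers of ZT12, each of which lay above all 12 livers of ZT5. Slc30a9 rose in both (0.37 in RNA, 0.31 in footprints), as did the secretory pathway zinc transporters Slc30a5 (0.26 and 0.35) and Slc30a7 (0.33 and 0.25). Slc39a6 rose in footprints by 0.83, and Slc30a6 fell by 0.33 in footprints, as did Slc39a11 by 0.23.

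Of 14 other genes that handle copper, all of which could be tested, 1 rose and 3 fell in RNA, and 2 rose and 4 fell in footprints, with medians of −0.20 and −0.09. These counts are not far from the 22.3 and 31.8% of all genes that passed in this fit. Steap4, a metalloreductase that reduces iron and copper, rose by 0.79 in RNA (SE 0.10, edgeR adjusted p = 4.36e-07) and by 0.81 in footprints (SE 0.12, edgeR adjusted p = 2.12e-05). Its relative Steap3 fell by 0.67 in RNA (SE 0.12, edgeR adjusted p = 3.99e-05) and by 0.70 in footprints (SE 0.09, edgeR adjusted p = 1.01e-06). Sco2, a copper chaperone of cytochrome c oxidase, fell by 1.16 in RNA (SE 0.17, edgeR adjusted p = 3.19e-06) and did not pass in footprints (4.76 CPM at ZT5 and 4.34 at ZT12, medians of 12). Cp, which encodes ceruloplasmin, fell by 0.20 in RNA and by 0.21 in footprints.

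Genes known to respond to glucocorticoids, to the acute phase and to oxidative stress were listed because each of these also acts on metallothionein genes. Of 10 glucocorticoid-responsive genes (Tat among them), 8 rose and 0 fell in both RNA and footprints, with medians of 1.00 and 1.09. Per1, also a clock gene, rose by 2.60 in footprints (SE 0.15, edgeR adjusted p = 1.13e-11) and Fkbp5 by 2.48 (SE 0.26, edgeR adjusted p = 1.46e-06). Of 12 acute-phase genes none rose, and 3 fell in RNA and 4 in footprints, close to the 22.3 and 31.8% of all genes. Among them were the fibrinogen genes Fgg (−0.51 in footprints), Fga (−0.51) and Fgb (−0.49). By genotype the fibrinogen genes passed in the Aco1 line alone (−0.82 to −0.65 in footprints). In both Ireb2 genotypes 0 of the 12 acute-phase genes passed. Of the 6 oxidative stress genes tested, Gclm rose and Gclc fell in RNA (0.20 and −0.52), and Gclc and Srxn1 fell in footprints (−0.60 and −0.56). Whether any of these genes bear on Mt1 and Mt2 was not tested.

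The question behind the knockouts, whether loss of either IRP changed these genes, was met with no call. In RNA, 0 of 32 tests (8 genes, 2 lines, 2 timepoints) passed by edgeR and by DESeq2, and 2 had an unadjusted p under 0.05. In footprints 0 of 32 passed and 4 had an unadjusted p under 0.05, and in TE 0 of 32 passed and 0 did. Few genes passed at all in these comparisons. In the Aco1 line the backgrounds at ZT5 were 0% in RNA, 0.00935% in footprints and 0.00935% in TE, and at ZT12 they were 0.00935%, 0.299% and 0.0935%. In the Ireb2 line they were 0.00935%, 0.0654% and 0.00935% at ZT5 and 0.0187%, 0.028% and 0% at ZT12. With 3 mice against 3, an exact two-sided permutation test of a single gene cannot go below p = 0.1.

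Leaving Mt1 and Mt2 aside, the fold changes of the 6 other members between knockout and control lay between −0.21 and 0.26 on the log2 scale in RNA and between −0.28 and 0.50 in footprints. The standard errors were 0.15 to 0.30 in RNA and 0.10 to 0.31 in footprints. The upper end belonged to Mtf1 in the Aco1 line at ZT5. Its footprints were at 6.37, 6.31 and 3.64 CPM in Aco1+/+ livers and at 8.15, 7.97 and 8.34 in Aco1-/- livers, which did not overlap (log2 difference 0.50, SE 0.27, edgeR adjusted p = 1, exact permutation p = 0.1). Non-overlap of this kind was found for 7.62% of all genes in that comparison. Slc39a8 footprints in the Aco1 line at ZT12 were at 22.3, 14.9 and 13 CPM in Aco1-/- livers and at 11.4, 12.4 and 12.2 in Aco1+/+ livers. They did not overlap either (log2 difference 0.49, SE 0.20, edgeR adjusted p = 0.321), as for 20.4% of all genes there.

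**Figure D4:**
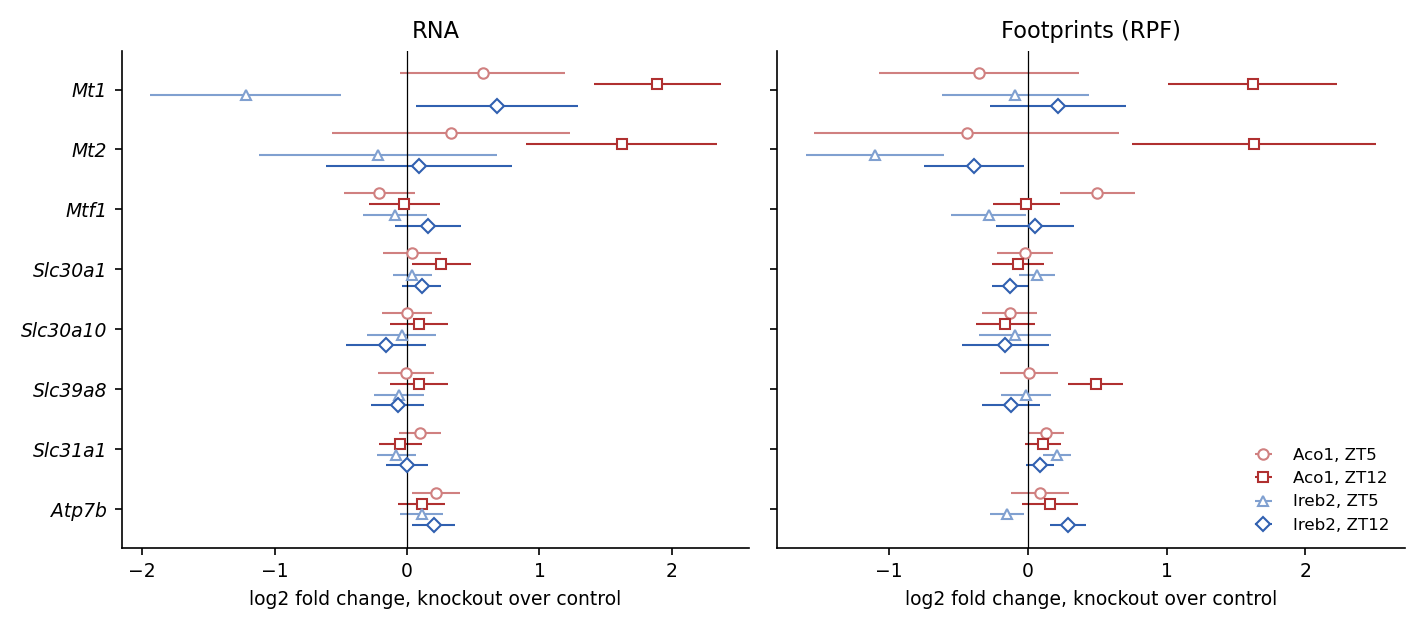
Log2 fold changes of knockout over control with their standard errors, for RNA (left) and footprints (right), one marker per line and timepoint, all open because no adjusted p was under 0.05. The 6 genes other than Mt1 and Mt2 lie between −0.28 and 0.50, and the metallothioneins spread from −1.22 to 1.89 with standard errors of up to 1.10.

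The metallothioneins again had the widest spread. In the Aco1 line at ZT12, Mt1 RNA was at 2.03, 8.08 and 5.72 CPM in Aco1-/- livers and at 2.01, 1.09 and 1.89 in Aco1+/+ livers (log2 difference 1.89, SE 0.48, edgeR adjusted p = 0.385). The groups did not overlap, but the lowest knockout liver was level with the highest control, and 11.6% of all genes were separated in that comparison. With the first sequencing run alone the difference was 0.56. The footprints overlapped, with 8.62 CPM in Aco1-/- replicate 1 between the controls at 8.15 and 8.88 (log2 difference 1.62, SE 0.61, edgeR adjusted p = 0.331). Without that mouse the footprints of Mt1 passed (log2 difference 2.10, edgeR adjusted p = 0.0188). In the Ireb2 line at ZT5, Mt2 footprints were at 3.63, 3.8 and 2.21 CPM in Ireb2+/+ livers and at 1.65, 1.24 and 1.83 in Ireb2-/- livers (log2 difference −1.10, SE 0.50, edgeR adjusted p = 0.641), and 15.9% of all genes were separated there. Summed lymphoid markers did not overlap in that comparison either, with 234 to 277 RPF CPM in Ireb2-/- livers and at most 200 in Ireb2+/+ livers, and their part was not tested. The TE of Mt1 in the Aco1 line at ZT5 was separated as well, at 3.33, 3.15 and 3.22 in Aco1+/+ livers and 2.20, 2.77 and 1.92 in Aco1-/- livers (log2 difference −0.92, SE 0.61, edgeR adjusted p = 1), as for 8.75% of genes. Summed erythroid markers were at 51, 94.3 and 31.8 RPF CPM in these Aco1+/+ livers and at 19.9, 14.5 and 21.4 in the Aco1-/- livers, and their part was not tested. At ZT12 in the Ireb2 line, for Mt2 footprints the Ireb2+/+ livers (11.8, 6.91 and 12.4) and the Ireb2-/- livers (7.91, 13.9 and 3.51) overlapped.

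Whether the effect of a knockout differed between ZT12 and ZT5 was tested as an interaction. In RNA, footprints and TE, 0 of 16 tests each passed by edgeR and by DESeq2, with 0, 1 and 0 at an unadjusted p under 0.05. The background was 0% in RNA and footprints of both lines and in TE of the Ireb2 line, and 0.028% in TE of the Aco1 line. The interactions of the metallothioneins had standard errors between 0.63 and 1.41 in footprints. Those of the 6 other members lay between −0.51 and 0.48 in footprints.

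The members also differed in how much footprint they carried for their RNA. Over 24 livers the TE of Slc31a1 was 1.29 ± 0.17 (SD, n = 24) on the log2 scale, that is 2.44 footprint CPM for each RNA CPM, higher than 95.6% of the 10696 genes, whose median was 0.11. It kept to a narrow range of 0.89 to 1.69 in single livers. Slc30a1, at 0.13 ± 0.21, and Atp7b, at −0.02 ± 0.18, were near the median of all genes (SD, n = 24 each). Slc30a10 was at −0.28 ± 0.29, Slc39a8 at −0.41 ± 0.27 and Mtf1 at −0.73 ± 0.49 (SD, n = 24 each), the last with 20.2% of genes below it. Neighbours in this order overlapped liver by liver, except that every liver of Slc31a1 was above every liver of Slc30a1, Slc30a10, Slc39a8, Mtf1 and Atp7b.

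Mt1 had the highest TE of the 8, at 2.55 ± 0.75 (SD, n = 24), higher than 99.9% of genes, and Mt2 was at 1.77 ± 1.47 (SD, n = 24). Both rest on few RNA counts, a median of 5 per library for Mt1 and 3 for Mt2, and the 2 libraries in which Mt2 RNA was at 0 gave its highest values, 5.27 and 5.60, which depend on the prior count of 0.5 that was added. The coding share of RNA reads also differed. The CDS column held 26.4% of all RNA counts of Mt1 and 20.2% of those of Slc31a1, against 58.2% over all genes, while it held 93.8% and 95.7% of their footprints. Its RNA share was also low in members of lower TE, at 26.2% for Slc30a10, 29% for Slc39a8, 35.3% for Slc30a1 and 35.5% for Mtf1. It was 52% for Mt2 and 77.1% for Atp7b.

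**Figure D5:**
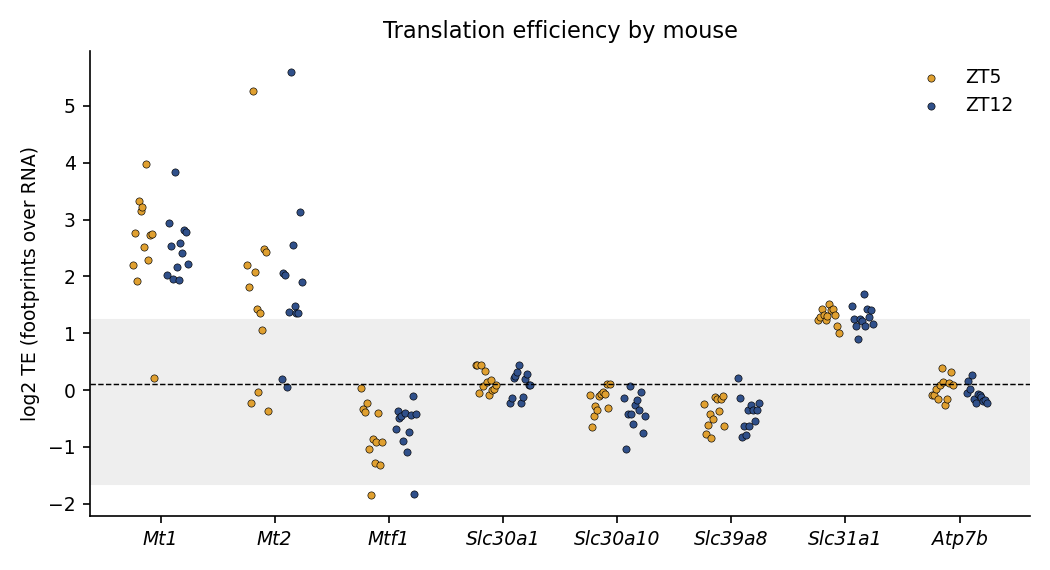
Log2 TE (footprints over RNA) of the 8 members, one point per liver, at ZT5 (ochre, n = 12) and ZT12 (blue, n = 12). The dashed line is the median of all genes at 0.11 and the grey band spans their 5th to 95th percentile, from −1.66 to 1.24, and Mt1, Mt2 and Slc31a1 lie at or above its upper edge in most livers.

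Slc39a8 carried many footprints ahead of its coding sequence. In the second count column, read from the values as the 5′ UTR, Slc39a8 had 680 of its 3388 footprints (20.1%), and Mtf1 had 141 of 1225 (11.5%), against 2.1% over all genes. Over the 12 livers of ZT5 the share for Slc39a8 ran from 12.3 to 35.1% around a median of 19.9%, and over those of ZT12 from 10.2 to 29.1% around 21.4%. In Atp7b it was 0.0644%.

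Within groups, the genes whose RNA went most with Mt1 over the 24 livers were Zfp36l2, Bdp1, Rnf144b, Odf2 and Shroom2 (Spearman correlation 0.85, 0.85, 0.81, 0.80 and 0.79 of deviations from group means). For Mt2 they were Vps37c, Chd7, Dact1, Abl1 and Srsf4 (0.83, 0.83, 0.81, 0.81 and 0.80). In footprints, which hold more counts, they were Igsf10, Dlg1, Apobr, Myo1e and Cplane1 for Mt1 (0.83, 0.79, 0.77, 0.77 and 0.76) and Spi1, Vcam1, Igsf10, Myo1e and Fchsd2 for Mt2 (0.80, 0.77, 0.77, 0.76 and 0.76). The lists of Mt1 and Mt2 had no gene in common in RNA, and Igsf10 and Myo1e in footprints, which were listed after their values were seen. They describe values that share a library and its depth, with a median of 5 and 3 RNA counts and 70 and 26 footprint counts of the metallothionein itself.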

How the data were processed

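Liver RNA-seq and ribosome footprint libraries of 24 mice were used. Per the labels and the study's methods, the authors depleted rRNA, trimmed reads (cutadapt 3.5), filtered them by quality and size, removed rRNA and tRNA reads (Bowtie2) and aligned the rest to the mouse genome (STAR 2.70f). The deposited values are raw counts per gene and sequencing run. The counting tool, its use of strand and the meaning of the columns are not given in the sources used here, and the third column was taken as CDS because it holds 91.93 to 96.05% of the footprints of each library. The 77 runs were summed into 48 libraries. Mice of a group differed by more than sampling noise.

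Genes were filtered with filterByExpr (minimum count 10, minimum total 15), normalised by upper quartile and tested with the robust quasi-likelihood test of edgeR 4.0.16 (R 4.3.3), each line fitted alone. P-values were adjusted by Benjamini-Hochberg over all 10696 genes, with a threshold of 0.05. TE was tested as the RPF against RNA difference with a term per mouse. Logs used a prior count of 0.5, and intervals are ±2 SE. Alternatives were DESeq2 1.42.0, TMM, other filters, the first run alone, all columns, a replicate block, the 6 mice compared, each mouse left out, and for TE unpaired libraries and limma 3.58.1. The scripts were tested on simulated data. The members and the gene lists were chosen with earlier results of these data known, and the fit averaged over genotypes was added after the data had been seen. All members are named, with a fold change where it passed, or where the groups did not overlap and the log2 change was at least 0.5. Values left out of this rule were named after they were seen. From each list up to 4 genes that passed are named by smallest p, others after their values were seen.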

Additional observations from a re-analysis of the deposited data

How the results depend on the processing

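The number of members past the threshold between knockout and control stayed at 0 in RNA and TE under the alternatives run, and ranged from 0 to 1 in footprints when one mouse was left out (1 without Aco1-/- replicate 1 of ZT12). Between the timepoints, the 3 calls in RNA became 8 with all count columns summed, and the 6 in footprints became 10 with DESeq2. With one mouse left out they ranged from 2 to 4 in RNA and from 4 to 8 in footprints, and stayed at 0 in TE. Averaged over the genotypes, the 3 calls in RNA became 6 with all count columns, and ranged from 2 to 5 with one mouse left out (5 without Aco1+/+ replicate 3 of ZT5), and the 4 in footprints from 4 to 5. The causes were not tested. Interactions stayed at 0. Of 613 alternative values of 27 named member results, 581 kept their direction and side of the threshold, 20 lost and 12 gained the call, and none reversed. Mt2 has no value with a minimum count of 50, and 3 DESeq2 adjusted p-values were not given. The fit of only the 6 mice compared was not run for interactions and the averaged change. With a replicate block there were 3 calls between the timepoints in RNA and 7 in footprints. A call is 1 gene in 1 genotype, so the same gene can give several. Under the block, footprints of Slc30a10 in Ireb2-/- livers passed (log2 change −1.09, edgeR adjusted p = 0.0321). Same-numbered mice had correlations of −0.403 to 0.258 over 72 pairs, 8 of them over 0.1. In footprints, knockout and control of one number gave 0.034 to 0.258 in the Aco1 line at ZT5 and 0.097 to 0.127 in the Ireb2 line at ZT12. They gave −0.086 to 0.022 in the Aco1 line at ZT12 and −0.02 to 0.128 in the Ireb2 line at ZT5. These values do not settle whether the numbers pair the mice, which the main fits treated as unpaired. The low RNA counts of Mt1 and Mt2 limit what their RNA and TE can show.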
